A study of Mus musculus with 12 samples.

Results

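The genes described here belong to the SREBP2-controlled pathway of cholesterol synthesis in mouse cerebellum. They were taken by name from a list of 7 (Hmgcs1, Sqle, Fdft1, Fdps, Idi1, Insig1 and Cyp51), which was drawn up with earlier results of these data known. Of these, 4 had a row among the 7667 gene rows of the deposited table, namely Hmgcs1, Sqle, Cyp51 and Insig1. Fdft1, Fdps and Idi1 are not analysed here. None of the 7 is an uptake receptor, so uptake was read from a separate list of transport genes, and the set is called the sterol synthesis genes below.

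The study compared fxSCA7 92Q mice, which carry 92 CAG repeats in the gene of spinocerebellar ataxia type 7, Atxn7, with wild-type littermates whose repeat was of normal length. The groups were 92Q cerebellum at 29 weeks, wild-type cerebellum at 29 weeks, 92Q cerebellum at 12 weeks and wild-type cerebellum at 12 weeks. Every group was sequenced as 3 libraries, with tissue of 3 mice in each pool. The sample labels do not name the promoter or the cells that express the repeat allele, and Atxn7 itself is not analysed here. The table holds 1 value per gene and condition, a whole number of a normalized score made by the authors, so the 3 libraries of a group cannot be separated. No difference below has a replicate check and no test was possible. The number of reads behind each value is unknown. In bulk tissue, fewer cells of a type and less RNA per cell cannot be told apart. The score is not stated to be adjusted for gene length, so levels are compared between conditions and not between genes.

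Cholesterol is built from acetyl-CoA. The mevalonate arm of the pathway leads to squalene, and the sterol arm then closes the rings and trims the molecule to cholesterol. The transcription factor SREBP2, encoded by Srebf2, is held in the endoplasmic reticulum with its escort Scap by the Insig proteins when sterols are plentiful, and moves to the Golgi for cleavage by the proteases encoded by Mbtps1 and Mbtps2 when they are scarce. Its targets include nearly every enzyme of the pathway as well as Insig1 itself. Because the blood-brain barrier keeps lipoprotein cholesterol out, the brain makes its own: oligodendrocytes for myelin, astrocytes for export on apolipoprotein E particles.

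Promoter stretches are shown for the 3 measured genes with an entry in the RefSeq promoter table (GRCm38.p6, the assembly of mm10), since SREBP2 acts there and the genes ranged from level to lower in 92Q. Each line runs from 250 to 51 bases before the RefSeq gene start. Capitals mark 3 motifs searched on both strands: TCACNCCAC, the core of a sterol regulatory element, CCAAT, the box bound by NF-Y, and GGGCGG, the box bound by Sp1. On the opposite strand the last 2 read ATTGG and CCGCCC. No marked motif overlapped another. The stretches lie at chr13:119690101-119690300 on the plus strand for Hmgcs1, chr5:4104748-4104947 on the minus strand for Cyp51 and chr5:28071162-28071361 on the plus strand for Insig1.
Hmgcs1: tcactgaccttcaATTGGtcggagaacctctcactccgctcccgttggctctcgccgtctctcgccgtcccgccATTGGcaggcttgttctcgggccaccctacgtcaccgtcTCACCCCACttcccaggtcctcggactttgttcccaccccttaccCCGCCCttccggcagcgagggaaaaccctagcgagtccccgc
Cyp51: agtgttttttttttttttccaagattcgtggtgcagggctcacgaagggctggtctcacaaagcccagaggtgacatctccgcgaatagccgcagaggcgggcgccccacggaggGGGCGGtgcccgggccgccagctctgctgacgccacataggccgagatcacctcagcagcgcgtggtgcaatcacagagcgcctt
Insig1: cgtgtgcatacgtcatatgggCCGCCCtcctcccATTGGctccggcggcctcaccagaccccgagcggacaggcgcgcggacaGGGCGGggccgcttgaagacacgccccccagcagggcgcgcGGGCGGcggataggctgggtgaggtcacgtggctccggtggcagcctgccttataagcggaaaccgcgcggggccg

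The search covered all 250 bases before each start. The Hmgcs1 promoter held the sterol regulatory element letters, starting 137 bases before the gene start, as did 1.05% of the 32851 promoters in the table. Hmgcs1 also held 3 CCAAT boxes and 2 Sp1 boxes. The Cyp51 window held 1 Sp1 box, and 1 CCAAT box that starts 29 bases before the gene start and lies beyond the printed stretch. Insig1 held 1 CCAAT box and 3 Sp1 boxes. Of all windows 33.8% held a CCAAT box and 32.7% an Sp1 box. These shares are by window, whereas the counts that follow are by gene, with a motif in any window of the gene counted. Among the 18 genes of the set and of the mevalonate and sterol arms with a window, 16 held a CCAAT box, 17 an Sp1 box and 1 the element letters. The 18 include genes with no score reported here, Idi1 among them. A match is a description of letters, and no match says only that these letters are not in this window.

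Hmgcs1, the synthase that makes HMG-CoA, was level across the 4 conditions. Its score was 41 in 92Q and 42 in wild type at 29 weeks, and 41 in 92Q and 42 in wild type at 12 weeks. The log2 ratio of 92Q over wild type was -0.03 at both ages, computed with a pseudocount of 1 added to each score. Since the scores are whole numbers, each can be off by 0.5. For Hmgcs1 this rounding alone allows a ratio of -0.07 to 0.00, so neither difference was beyond rounding. The gene lies on chromosome 13 at 119690379 to 119708260 (mm10, GENCODE M21), and it and the other 3 measured genes are annotated as protein coding.

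Sqle encodes squalene epoxidase, which adds the oxygen that the ring closure needs. Its score was 15 in 92Q and 16 in wild type at 29 weeks, and 16 in 92Q and 17 in wild type at 12 weeks. Neighbouring values in this order differed by no more than 1 unit, which rounding can produce. The log2 ratios of 92Q over wild type were -0.09 at 29 weeks and -0.08 at 12 weeks. Sqle lies on chromosome 15 at 59315077 to 59331192.

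Cyp51, the lanosterol demethylase that takes the first trimming step after ring closure, was lower in 92Q at both ages. Its score was 14 in 92Q against 17 in wild type at 29 weeks, and 15 in 92Q against 17 in wild type at 12 weeks. Both 92Q values lay below both wild-type values. The log2 ratios were -0.26 at 29 weeks (rounding range -0.35 to -0.18) and -0.17 at 12 weeks (-0.26 to -0.08), the only genotype differences of the 4 measured genes that rounding cannot produce. The 29-week ratio is exactly 1.2-fold on this scale. The change of the ratio between ages, -0.09, was within its rounding range of -0.27 to 0.08. Cyp51 lies on chromosome 5 at 4081145 to 4104746.

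Insig1 encodes the endoplasmic reticulum protein that retains SREBP when sterols are plentiful. Its score was 11 in 92Q and 11 in wild type at 29 weeks, and 9 in 92Q and 10 in wild type at 12 weeks. Its genotype ratios, 0.00 and -0.14, were within rounding. Insig1 lies on chromosome 5 at 28071363 to 28078662.

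**Figure D1:**
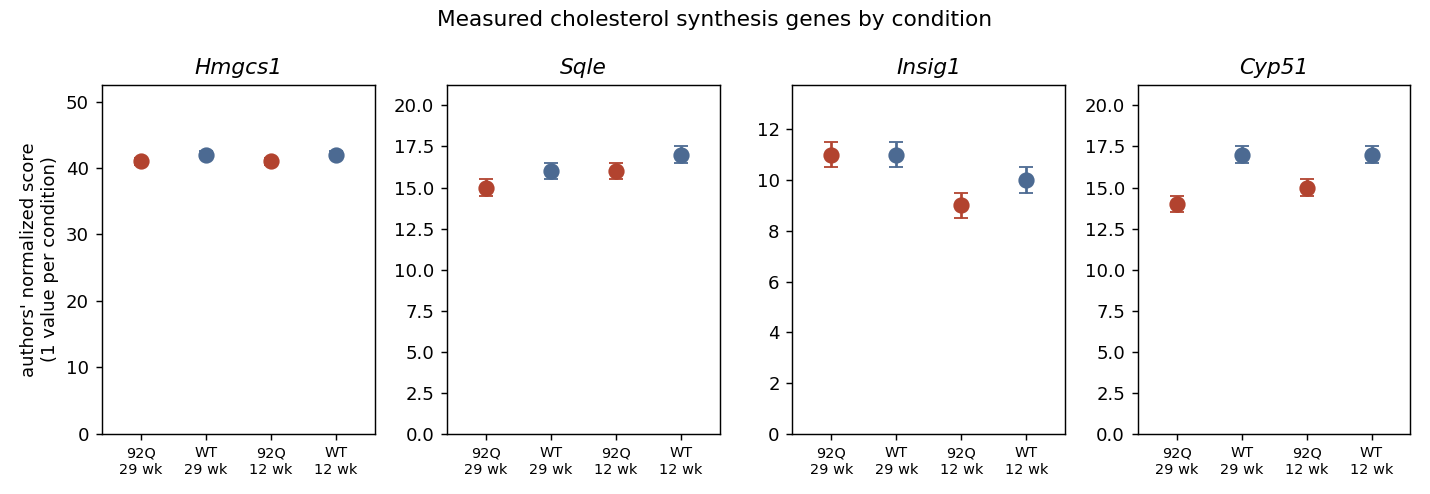
Authors' normalized score (vertical axis, from 0) of the 4 measured genes in each condition, 92Q in red and wild type in blue, with bars of 0.5 for rounding and 1 value per condition. Hmgcs1 lay at 41 or 42 throughout, while Cyp51 was 14 and 15 in 92Q against 17 in wild type at both ages.

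Counted together, 3 of the 4 measured genes were lower in 92Q at 29 weeks and 1 was equal, with a median log2 ratio of -0.06. Over all 7666 genes compared at that age 3791 were higher, 1872 equal and 2003 lower, with a median of 0.00. Only Cyp51 reached a 1.2-fold difference, against 3.12% of all genes at least 1.2-fold lower and 3.78% at least 1.2-fold higher. A threshold of 1.5-fold was passed by 0 of the 4, against 0.73% of all genes lower and 0.535% higher. Differences lower beyond rounding numbered 1 of 4, and 14.5% of all genes were lower and 27.1% higher beyond rounding.

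At 12 weeks all 4 were lower in 92Q, with a median of -0.11, but 3 of these differences were of 1 unit. Over all 7660 genes compared, 2462 were higher, 2386 equal and 2812 lower, with a median of 0.00. Of the 4 genes 0 reached 1.2-fold, against 1.54% of all genes lower and 0.496% higher, and 1 was lower beyond rounding, against 18.7% of all genes. The rounding ranges of the set's medians, -0.15 to 0.00 at 29 weeks and -0.21 to 0.00 at 12 weeks, reached 0.

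The rest of the synthetic route was read from lists of its enzymes. For the mevalonate arm 4 further genes are reported. At 29 weeks all 4 were higher in 92Q (median log2 ratio 0.11), each by 1 unit, and none of the differences was beyond rounding. Pmvk, phosphomevalonate kinase, was 17 against 16, and the decarboxylase Mvd was 10 against 9. Acat2 and Acat1, acetyl-CoA acetyltransferases of the cytosol and the mitochondria, were 10 against 9 and 25 against 24.

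At 12 weeks 2 of these 4 mevalonate-arm genes were lower in 92Q and 2 equal (median -0.03), with no difference beyond rounding. Mvd was 10 against 11 and Acat1 23 against 24 at that age, while Acat2 was 10 and Pmvk 17 in both genotypes.

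For the sterol arm 6 further genes are reported. At 29 weeks their median was -0.08, with 3 lower in 92Q, 2 equal and 1 higher. The 3 lower ones were lower beyond rounding, or 50% against 14.5% of all genes. With a minimum score of 20 only Msmo1, Erg28 and Sc5d were left, and the median was the ratio of Msmo1, -0.20. Erg28, listed under the older symbol 0610007P14Rik and known in yeast as a scaffold of the C-4 demethylation enzymes, was 52 in 92Q against 66 in wild type (-0.34, rounding range -0.36 to -0.31). Msmo1, the methylsterol oxidase that starts C-4 demethylation, was 32 against 37 (-0.20). Ebp, the sterol isomerase, was 16 against 18 (-0.16). Other enzymes of the same arm were level: Nsdhl was 10 in both, Dhcr7, the last reductase of the ring system, was 15 in both, and the desaturase Sc5d was 26 against 25.

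Msmo1 and Erg28 were lower in 92Q at 12 weeks as well. Msmo1 was 30 in 92Q against 36 in wild type (-0.26, rounding range -0.30 to -0.21) and Erg28 63 against 71 (-0.17), both beyond rounding. That is 33.3% of the 6 genes, against 18.7% of all genes lower beyond rounding. Ebp was 18 against 19. Nsdhl, Dhcr7 and Sc5d were equal between genotypes at 10, 15 and 26. In all, 3 of 6 were lower and 3 equal, with a median of -0.04 (-0.17, the ratio of Erg28, with a minimum score of 20). For Msmo1, Erg28 and Cyp51 the 92Q values lay below the wild-type values of both ages. These genes were singled out after their values were seen, and the share of all genes with this order was not counted. The 29-week and the 12-week ratios share none of the 4 conditions, but Xist was lower in 92Q at both ages.

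Over the 14 genes reported for the set and both arms, the median at 29 weeks was 0.00, with 6 lower in 92Q, 3 equal and 5 higher. Of these 14 genes, 2 were at least 1.2-fold lower (Cyp51 and Erg28), or 14.3% against 3.12% of all genes, and 0 at least 1.2-fold higher, against 3.78%. Lower beyond rounding were 4, or 28.6% against 14.5% of all genes. At 12 weeks 9 were lower, 5 equal and 0 higher, with a median of -0.07, and 0 reached 1.2-fold. Lower beyond rounding were 3, or 21.4%, close to the 18.7% of all genes. No difference between the arms was tested.

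**Figure D2:**
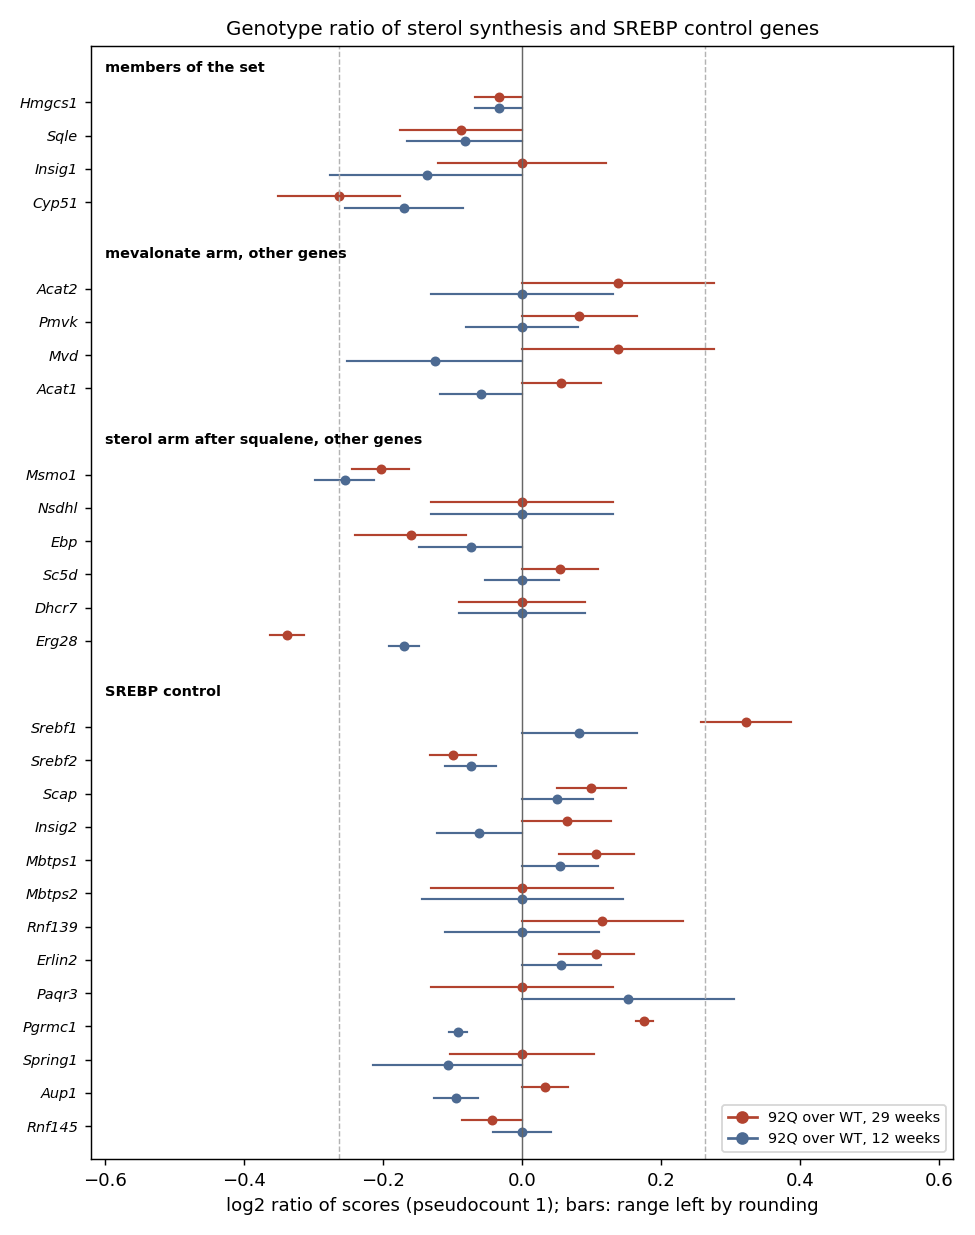
Log2 ratio of 92Q over wild type (horizontal axis, pseudocount of 1) for each gene reported for the set, both arms and SREBP control, at 29 weeks in red and 12 weeks in blue. Horizontal bars are rounding ranges and dashed lines mark 1.2-fold. The rounding ranges of Cyp51, Msmo1, Erg28 and Srebf2 lay left of 0 at both ages, and Srebf1 lay right of 0 at 29 weeks with a ratio of 0.32.

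At 29 weeks 8 of the 13 genes reported for SREBP control were higher in 92Q, 3 equal and 2 lower (median 0.06). Srebf2, the factor itself, was 41 in 92Q against 44 in wild type at 29 weeks (-0.10) and 37 against 39 at 12 weeks (-0.07). Both were beyond rounding, as were 14.5% of all genes lower at 29 weeks and 18.7% at 12 weeks. Srebf1, which encodes the related factors that act mostly on fatty acid synthesis, was 24 against 19 at 29 weeks (0.32, rounding range 0.26 to 0.39). It was the only gene of this list at 1.2-fold, against 3.78% of all genes at least 1.2-fold higher. At 12 weeks Srebf1 was 17 against 16. The escort Scap was 29 against 27 and the protease gene Mbtps1 27 against 25 at 29 weeks, while Mbtps2 was 10 in both.

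The other retention and degradation factors also lay close to wild type. Insig2, the second Insig gene, was 22 against 21 at 29 weeks and 22 against 23 at 12 weeks. The ubiquitin ligase genes Rnf139 and Rnf145 were 12 against 11 and 32 against 33 at 29 weeks, and 12 in both and 34 in both at 12 weeks. Erlin2, an endoplasmic reticulum protein of the degradation route, was 27 against 25, and Aup1, a lipid droplet protein of the same route, 43 against 42 at 29 weeks. Aup1 was 43 against 46 and Erlin2 25 against 24 at 12 weeks.

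Pgrmc1, a haem-binding protein that associates with CYP51 and the Insig proteins, was 121 in 92Q against 107 in wild type at 29 weeks (0.18) and 105 against 112 at 12 weeks (-0.09). Paqr3, the Golgi anchor of Scap, was 10 in both genotypes at 29 weeks and 9 against 8 at 12 weeks. Spring1, a cofactor of the Mbtps1 protease listed under 2410131K14Rik, was 13 in both and 12 against 13. At 12 weeks Mbtps1 was 26 against 25, Scap 28 against 27 and Mbtps2 9 in both. The list's median at that age was 0.00, with 5 higher, 3 equal and 5 lower.

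Uptake and intracellular transport of sterol were followed in 16 measured genes, and the LDL receptor is not analysed here. At 29 weeks 11 were higher in 92Q, 3 equal and 2 lower (median 0.05). Lrp8, a lipoprotein and reelin receptor of neurons, was 15 against 19 (-0.32), the only one at least 1.2-fold lower, or 6.25% against 3.12% of all genes. Npc2, the lysosomal carrier that hands cholesterol to NPC1, was 29 against 24 and Lipa, the lysosomal acid lipase, 11 against 9, both at a log2 ratio of 0.26. These 2 were at least 1.2-fold higher, or 12.5% against 3.78% of all genes. Lipa reached 10 in 92Q at 29 weeks alone, and every row of the table reached 10 in some condition, so its direction was fixed by that. Mylip, a ligase that targets lipoprotein receptors, was 12 against 10. At 12 weeks none of the 16 reached 1.2-fold, against 1.54% of all genes lower and 0.496% higher, and the median was 0.01.

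On the export side 14 genes were measured. At 29 weeks Apoe, the main sterol carrier protein of the brain, was 1552 in 92Q against 1062 in wild type (0.55), while at 12 weeks it was 1094 against 1105 (-0.01). Clu and Apod, further apolipoproteins, were 572 against 468 and 225 against 182 at 29 weeks, and 446 against 463 and 179 against 182 at 12 weeks. The cholesterol exporter Abca1 was 12 against 10 and 10 against 9. Of this list 3 were at least 1.2-fold higher at 29 weeks, namely Apoe, Clu and Apod, or 21.4% against 3.78% of all genes. The list's median was only 0.03, with 7 higher, 3 equal and 4 lower, and 0.00 at 12 weeks.

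In the other branches that use mevalonate products, 7 of 13 measured genes were higher, 3 equal and 3 lower at 29 weeks (median 0.05). Icmt, which methylates prenylated proteins, was 69 in 92Q against 107 in wild type at 29 weeks (-0.63) and 100 against 121 at 12 weeks (-0.27). It was the only gene of the pathway lists at 1.5-fold, and the only one that stands among the 99 genes of the authors' deposited shorter table, which held 0 of the 4 genes of the set. The dolichol genes Dolpp1 and Dolk were 16 against 18 and 12 against 11, and Rabggtb, a subunit of the enzyme that prenylates Rab proteins, 23 against 21. The median at 12 weeks was 0.00.

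Fatty acid synthesis genes that respond to SREBP differed in both directions at 29 weeks, with 12 of 21 measured genes higher in 92Q, 2 equal and 7 lower. The median was 0.04 (-0.0049 with a minimum score of 20). Beyond rounding 7 were higher, or 33.3% against 27.1% of all genes, and 6 lower, or 28.6% against 14.5%. None reached 1.2-fold at either age. Of all genes 3.12% were at least 1.2-fold lower and 3.78% higher at 29 weeks, and 1.54% and 0.496% at 12 weeks. The elongase Elovl6 was 21 against 24 (-0.18), Acsl1, which activates long-chain fatty acids, 16 against 14 (0.18), Gpam, the first acyltransferase of glycerolipid synthesis, 17 against 15 (0.17), and the desaturase Fads3 11 against 10. The median at 12 weeks was 0.00, with 4 higher, 8 equal and 9 lower. Beyond rounding 8 of the 21 were lower at that age, or 38.1% against 18.7% of all genes. Higher beyond rounding were 0, against 11.3% of all genes. Among the lower ones Thrsp, a lipogenic regulator, was 57 against 66 and the desaturase Scd1 76 against 83. Tecr counted among them at 340 against 343 (-0.01), since smaller ratios pass this rule at higher scores. The shares were not compared at like score. With upper quartile or column sum scaling the list's median at 12 weeks lay above 0, as did the median of all genes (0.0324 and 0.0287). Thrsp, Scd1 and Tecr were named after their values were seen.

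**Figure D3:**
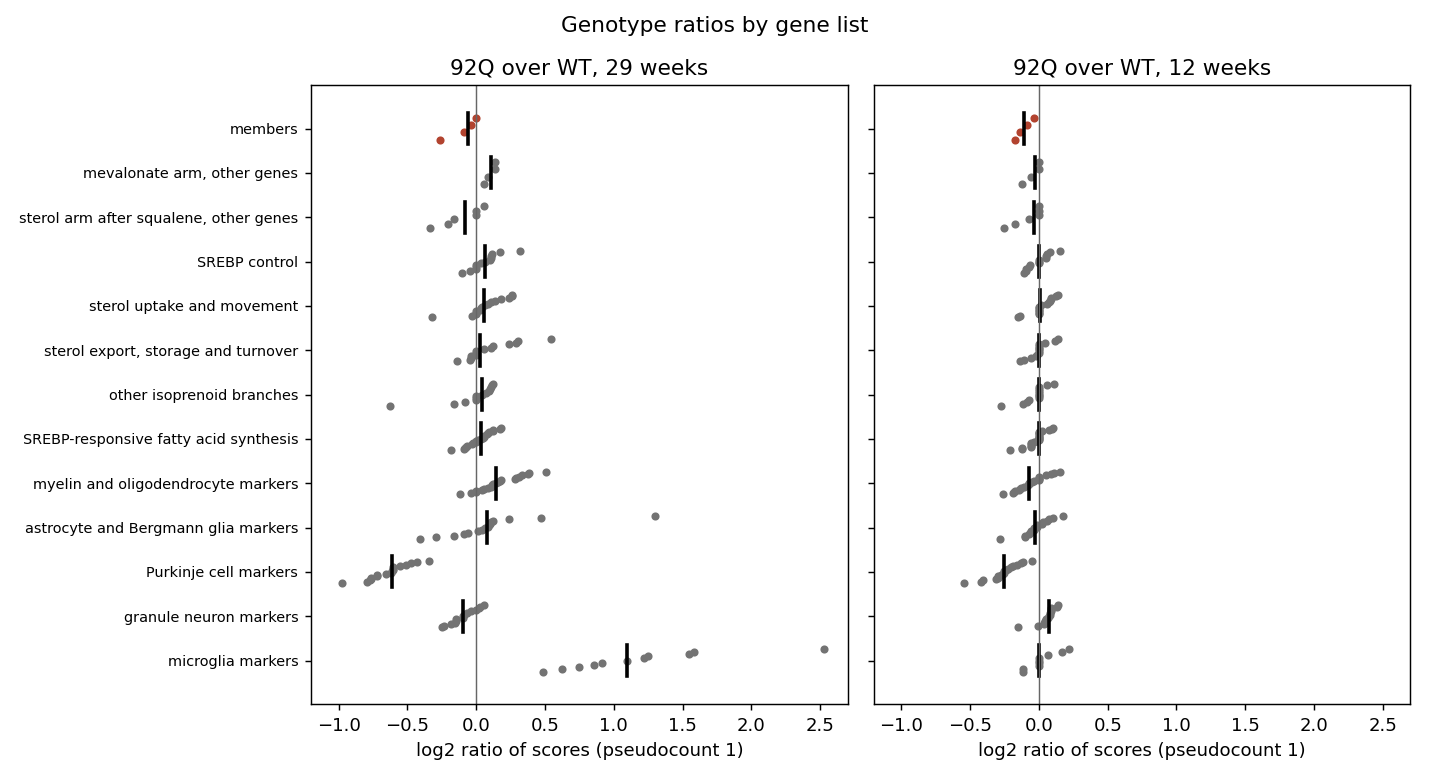
Log2 ratio of 92Q over wild type at 29 weeks (left) and 12 weeks (right) for every measured gene of the set (red), 7 pathway lists and 5 cell marker lists (grey), with list medians as black lines. The set had medians of -0.06 and -0.11, and the Purkinje cell markers medians of -0.61 and -0.26.

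Cell markers moved in the same comparisons. Cerebellar identity was clear from Purkinje cell and granule neuron markers, with all 18 and all 15 of the named genes measured and none at 0. At 29 weeks all 18 Purkinje cell markers were lower in 92Q, with a summed score of 4075 in 92Q against 6411 in wild type. At least 1.5-fold lower were 13, or 72.2% against 0.73% of all genes. All 11 measured microglia markers were higher, with sums of 409 against 189. Of these, 4 reached 10 only in 92Q at 29 weeks, which fixed their direction, as it did for 4 of the 7 choroid plexus markers. Astrocyte and Bergmann glia markers were higher in 11 of 16, with sums of 3313 against 3444 and a median of 0.08. Within them Gfap was 235 against 95 and Aldoc 924 against 1227. Aldoc alone differed by more than the sums did, so the lower 92Q sum rests on that gene. Myelin and oligodendrocyte markers were higher in 17 of 21, with sums of 4982 against 4636 and a median of 0.15. Choroid plexus markers summed to 1711 against 579, granule neuron markers to 2934 against 3175, endothelial markers to 136 against 126, and C1ql1, the 1 measured precursor marker, was 11 against 10. No marker of these lists was at 0 at 29 weeks, and the part of these cells in the values of Cyp51, Msmo1, Erg28, Srebf1, Icmt and Apoe was not tested.

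At 12 weeks the Purkinje markers were lower in all 18, with sums of 6063 in 92Q against 7644 in wild type. Myelin markers summed to 4368 against 4628 (13 of 21 lower, median -0.07). Astrocyte and Bergmann glia markers summed to 3312 against 3591 (10 of 16 lower, median -0.03). Aldoc, at 1055 against 1284, made up most of the difference of the astrocyte and Bergmann glia sums. Granule neuron markers were higher in 13 of 15, with sums of 3616 against 3504 and a median of 0.07, whereas 11 of the 15 were lower at 29 weeks. All 13 were higher beyond rounding at 12 weeks, or 86.7% against 11.3% of all genes. Microglia markers summed to 163 against 162. Choroid plexus markers summed to 65 against 456, with Kl and Sostdc1 listed at 0 in 92Q. Xist was 30 in 92Q against 66 in wild type at 12 weeks and 25 against 63 at 29 weeks, and the Y-linked Eif2s3y 12 against a value listed at 0 and 15 against 6. The sex of the pooled mice and their genotype cannot be told apart in any genotype ratio given here.

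With age the set was level in wild type. Between 29 and 12 weeks Hmgcs1 was 42 and 42, Cyp51 17 and 17, Sqle 16 and 17 and Insig1 11 and 10, with a median log2 ratio of 0.00. Of the 4 genes 0 differed beyond rounding, against 16.2% of all 7663 genes higher and 29% lower beyond rounding. In 92Q the values at 29 and 12 weeks were 41 and 41 for Hmgcs1, 15 and 16 for Sqle, 14 and 15 for Cyp51 and 11 and 9 for Insig1, with a median of -0.04. Insig1 was thus 1.2-fold higher at 29 weeks in 92Q (0.26, rounding range 0.13 to 0.40), against 5.53% of all genes at least 1.2-fold higher and 23.6% higher beyond rounding.

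The age ratio of the SREBP genes was positive in both genotypes. Srebf2 was 41 at 29 weeks against 37 at 12 weeks in 92Q (0.14) and 44 against 39 in wild type (0.17). Srebf1 was 24 against 17 in 92Q (0.47) and 19 against 16 in wild type (0.23). These ratios were beyond rounding, as were 23.6% of all genes higher in 92Q and 16.2% higher in wild type. At least 1.2-fold higher in 92Q were 5.53% of all genes. In the mevalonate arm 3 of 4 genes were lower and 1 equal at 29 weeks in wild type (median -0.11), with Mvd at 9 against 11 (-0.26), the 1 at least 1.2-fold lower, against 3.81% of all genes. In 92Q 1 of the 4 was higher and 3 equal. In the sterol arm Msmo1 was 32 against 30 in 92Q and 37 against 36 in wild type, and Erg28 52 against 63 and 66 against 71. The age and genotype ratios share condition columns and are not separate results.

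Cell markers also differed between the ages. In 92Q, microglia markers summed to 409 at 29 weeks against 163 at 12 weeks, choroid plexus markers to 1711 against 65 and Purkinje cell markers to 4075 against 6063 (18 of 18 lower, median -0.59). Myelin markers were higher at 29 weeks in 19 of 21 (sums of 4982 against 4368, median 0.19), and granule neuron markers lower in all 15 (2934 against 3616). In wild type the sums were 189 against 162 for microglia, 579 against 456 for choroid plexus, 6411 against 7644 for Purkinje cell, 4636 against 4628 for myelin and 3175 against 3504 for granule neuron markers. The part of these cells in the age ratios of Srebf1, Srebf2, Insig1, Mvd and Erg28 was not tested. Eif2s3y was 6 at 29 weeks against a value listed at 0 at 12 weeks in wild type and 15 against 12 in 92Q, so the sex of the pooled mice and age cannot be told apart in the age ratios.

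**Figure D4:**
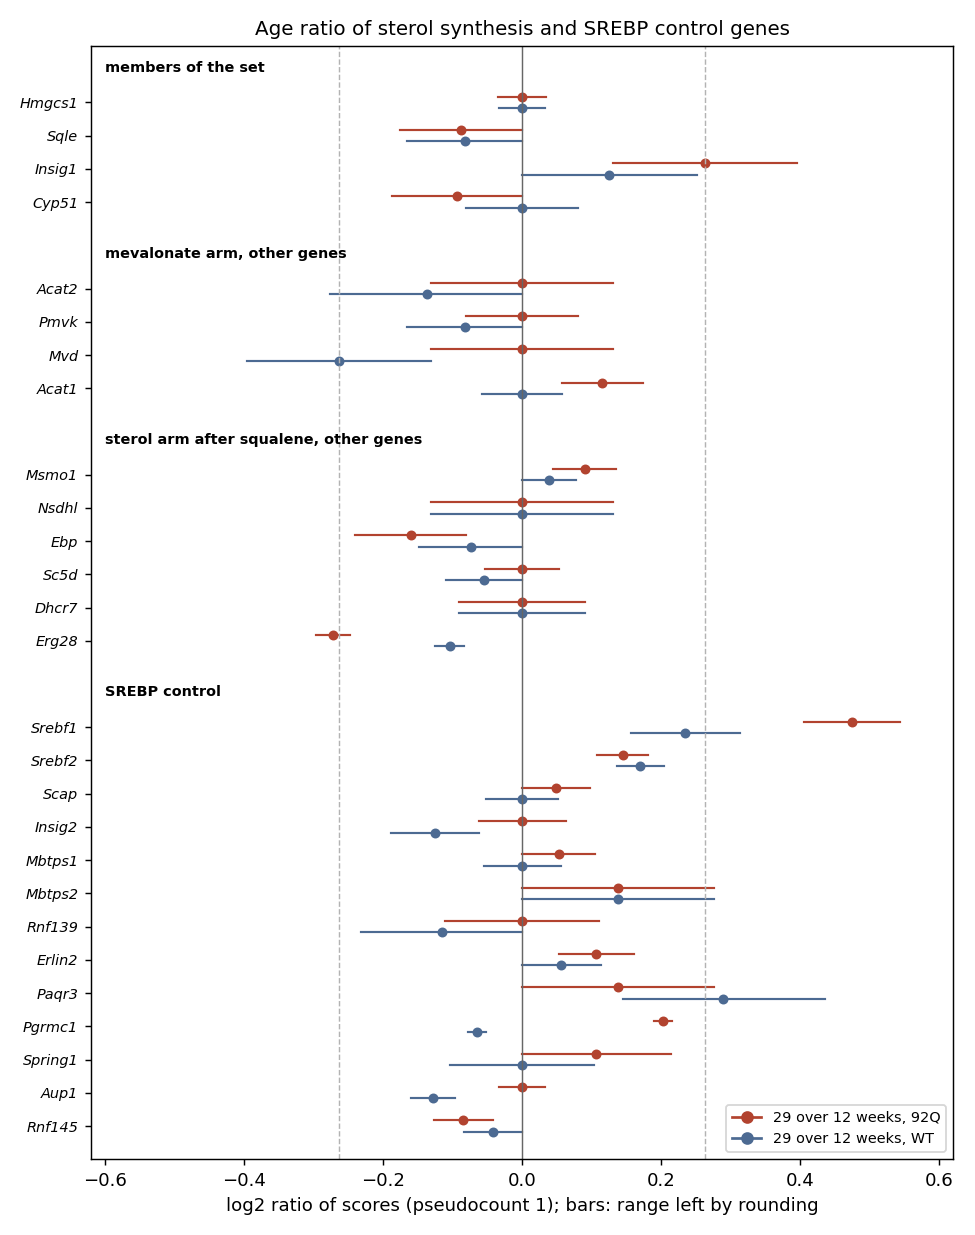
Log2 ratio of 29 over 12 weeks (horizontal axis, pseudocount of 1) in 92Q (red) and wild type (blue) for the same genes, with rounding ranges as bars and dashed lines at 1.2-fold. Srebf1 and Srebf2 lay right of 0 in both genotypes, and Mvd had a ratio of -0.26 in wild type.

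The difference of the genotype ratio between 29 and 12 weeks had a median of 0.00 over the set, and 0 of the 4 genes differed beyond rounding, against 21.9% of all 7659 genes higher and 12% lower. Ordered by score, no neighbouring conditions of Hmgcs1, Sqle or Insig1 lay apart beyond rounding, and 1 neighbouring pair of Cyp51 did. Likeness to the median course of the set over the 4 conditions was measured as Euclidean distance of the centred log2 scores, among 4259 other genes with a mean score of 20 or more. The 10 nearest were Pi4k2a, Fam171a2, Ggact, Chpf, Ppp6c, Map7d2, Clk1, Acsl3, Rbbp7 and Mapk8, at distances of 0.013 to 0.035. Among them Acsl3, an acyl-CoA synthetase of the fatty acid list, was 48 against 51 at 29 weeks and 48 against 50 at 12 weeks. The genes of the set did not all lie near its median course. Of the 4259 genes, 2.63% lay nearer to it than Hmgcs1 did, 7.14% than Sqle, 32.3% than Cyp51 and 80.4% than Insig1. With 4 values per gene and a nearly flat course, such likeness is a description.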

How the data were processed

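RNA from cerebella was sequenced on an Illumina instrument from TruSeq libraries, per the labels' protocols. The submitters' processing notes name Bowtie 0.12.7, SAMtools 0.1.12a, Cuffdiff 1.3.0 and mm10, with no role or order; the sources used here give neither annotation nor filters nor normalization. The deposited score, 1 whole number for each gene in a condition, has a median of 22 in each column and column sums over gene rows of 322446 to 333581. It was read as a value normalized by the authors and rounded, not as a count. No depth or interval could be given, and rounding hides differences of 1 unit in genes near 10.

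Of 7684 rows, 17 named by a number were left out. Log2 ratios used a pseudocount of 1 and genes with 5 or more in at least 1 condition of a pair. Rounding ranges moved each score by 0.5, and beyond rounding means that the range excludes 0. Some genes of the fixed lists are not reported here and are left out of every list count. Of the other 239 list genes 188 matched, 3 by an older symbol that is no other gene's current one in RefSeq. Ratios of low genes are understated. The functions were tested on simulated data. Python 3.11.15, NumPy 2.4.6 and pandas 2.3.3 were used.

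The members and lists were chosen with earlier results of these data known. Named were all members, all other measured genes of both arms and of SREBP control, up to 4 of each other pathway list with the largest 29-week ratios or past 1.5-fold, and the 10 genes of nearest course. Marker genes were named as examples. The 9 alternatives were pseudocounts of 0.1 and 5, no minimum and minimums of 10 and 20, and 4 scalings.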

Additional observations from a re-analysis of the deposited data

Results flagged for a closer look

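In 6 of the 91 genes of the set and its pathway lists 92Q was higher than wild type at 29 weeks and lower at 12 weeks, both beyond rounding. This share of 6.59% was below the 9.34% of all 7659 genes that differed in opposite directions at the 2 ages, so the 6 genes are given as single values and not as a result about the lists. The difference of these genes between ages was not tested. The change of the log2 ratio between ages was 0.56 for Apoe, 0.34 for Clu, 0.33 for Apod, 0.27 for Pgrmc1, 0.12 for Hacd3 and 0.0985 for Mid1ip1. Hacd3, a dehydratase of fatty acid elongation listed as Ptplad1, was 73 in 92Q against 70 in wild type at 29 weeks and 73 against 76 at 12 weeks. Mid1ip1, an activator of acetyl-CoA carboxylase, was 76 against 74 and 69 against 72.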

How the results depend on the processing

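The median log2 ratios of the set stayed within their rounding ranges under all 9 alternatives and when each of the 4 genes was left out, in all 65 recomputed values. With a minimum of 20 only Hmgcs1 was left, so those medians were the ratio of that gene alone. Among the 165 recomputed ratios of single genes 3 moved beyond rounding, all of Hmgcs1 for 29 over 12 weeks in wild type, which was 0.03 with upper quartile scaling, 0.05 with column sum scaling and 0.05 after quantile normalization, against 0.00. Of 126 recomputed list medians 5 moved. For SREBP-responsive fatty acid synthesis the median was -0.0049 at 29 weeks with a minimum of 20. At 12 weeks it was 0.0324 with upper quartile scaling and 0.0287 with column sum scaling, as was the median of all genes under those scalings. For the sterol arm the median was -0.20 at 29 weeks and -0.17 at 12 weeks with a minimum of 20. That leaves only Msmo1, Erg28 and Sc5d, so these medians were the ratios of Msmo1 and of Erg28 alone. Why the fatty acid median moved with a minimum of 20 was not tested. Counts of all genes past a threshold moved by over 1.5 times in 12 of 72 recomputations. With a minimum of 20 the genes at least 1.2-fold higher at 29 weeks numbered 122, against 290. That minimum leaves fewer genes to compare, so the 2 counts are not out of the same total. The 2 genes of the set and both arms at least 1.2-fold lower at 29 weeks became 1 with a pseudocount of 5 or a minimum of 20, neither of which keeps Cyp51 among them. No scaling moved the median ratio of all genes by more than 0.0449. No paired analysis was possible because each table column combines the 3 libraries of a group, and for the same reason no library could be left out. The scores limit what can be seen: at 10 units a difference of 1 lies within rounding.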
